A study of Mus musculus with 8 samples.

Results

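The genes of MHC class I antigen presentation were followed in splenic B cells of PRMT5 transgenic mice with and without TCL1. The set held 10 gene symbols, chosen by name from the 24902 symbols of the bulk RNA-seq matrix, namely H2-K1, H2-D1, H2-Q7, H2-T23, B2m, Tap1, Tap2, Tapbp, Nlrc5 and Erap1. All 10 had a count in every library, from 141 (Erap1 in the Eµ-TCL1 mouse) to 49892 (H2-D1 in Eµ-PRMT5/TCL1 mouse 1), and all 10 were among the 13173 genes that passed the expression filter.

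In all, 8 libraries were analysed, 1 per mouse, all of strain C57BL/6N and all taken when the animals met early removal criteria (ERC). Of these, 4 mice carried the Eµ-hPRMT5 transgene, which places human PRMT5, an arginine methyltransferase, under a VH promoter and the Eµ heavy chain enhancer, active in immature and mature B cells. Another 3 mice carried Eµ-hPRMT5 together with Eµ-hTCL1 (Eµ-PRMT5/TCL1). The last, 1 mouse, carried Eµ-hTCL1 alone, a transgene that gives a leukemia resembling human chronic lymphocytic leukemia (CLL). Non-transgenic mice were not analysed here, the labels give no ages, and every mouse compared had met these criteria. B cells were enriched from spleen by removing other cells with a pan-B isolation kit, not by a sort.

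MHC class I molecules show peptides from inside the cell to CD8 T cells. The proteasome cuts proteins into peptides, the TAP transporter moves them into the endoplasmic reticulum, tapasin and other chaperones help load them, ERAP1 trims them, and a heavy chain paired with beta-2 microglobulin carries them to the surface. NLRC5 is the transactivator that acts with RFX, CREB/ATF and NF-Y proteins at class I promoters, and interferon acts through IRF1 and other factors on many of the same genes.

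The promoter letters are shown because class I promoters are known to share this control, which is not claimed here for every member. Of the 10 members, 8 matched an entry of the RefSeq promoter table (GRCm38.p6), and Tap2 and Nlrc5 did not. The 200 bases before the first listed start were searched on both strands for TGACG, the core of a CREB/ATF motif, CCAAT, the NF-Y motif, which reads ATTGG on the other strand, GGG followed after 5 bases by CC, a loose form of the NF-κB motif, and GAAA followed after 2 bases by GAAA, a form of the interferon-stimulated motif. TGACG and CCAAT were both found in 4 of the 8 windows (H2-K1, H2-D1, H2-Q7 and B2m), against 4.87% of all 32851 windows of that length. In each of these 4 genes TGACG was followed by ATTGG after 19 or 20 bases, an arrangement that 0.119% of all windows held on either strand. The spacing counted over all windows is the one found in these genes, and their own windows are among those counted. H2-K1, H2-D1 and H2-Q7 are also all heavy chains, so this share is a description and no independent check. These 4 stretches do not overlap one another, and within them capitals mark TGACG and ATTGG, each written 5′ to 3′ on the strand of its gene.
H2-K1, chr17:34000359-34000388, minus strand: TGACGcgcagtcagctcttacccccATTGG
H2-D1, chr17:35262993-35263022, plus strand: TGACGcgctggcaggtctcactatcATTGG
H2-Q7, chr17:35439091-35439119, plus strand: TGACGtgtaacagttctcacccctATTGG
B2m, chr2:122147609-122147638, plus strand: TGACGacctccggatctgagtccggATTGG

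The longer windows of the genes whose promoters lie outside annotated exons show these letters in place, with TGACG beginning 41 bases (H2-K1), 64 bases (H2-Q7) and 78 bases (B2m) before the start. In the other 5 windows the annotation places an exon, so they are not printed. Capitals again mark TGACG and CCAAT or ATTGG.
H2-K1, chr17:34000348-34000547, minus strand: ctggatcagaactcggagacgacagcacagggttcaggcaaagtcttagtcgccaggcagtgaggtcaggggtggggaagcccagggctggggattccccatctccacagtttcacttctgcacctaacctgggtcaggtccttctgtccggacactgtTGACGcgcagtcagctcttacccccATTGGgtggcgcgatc
H2-Q7, chr17:35438955-35439154, plus strand: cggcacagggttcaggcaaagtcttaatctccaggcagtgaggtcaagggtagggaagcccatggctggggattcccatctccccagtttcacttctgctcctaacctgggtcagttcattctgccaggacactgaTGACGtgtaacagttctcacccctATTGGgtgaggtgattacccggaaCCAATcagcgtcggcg
B2m, chr2:122147487-122147685, plus strand: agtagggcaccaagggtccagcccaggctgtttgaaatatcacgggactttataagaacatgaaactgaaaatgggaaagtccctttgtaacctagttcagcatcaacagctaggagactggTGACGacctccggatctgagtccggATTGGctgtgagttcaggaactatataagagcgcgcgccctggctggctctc

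TGACG alone was found in 5 of 8 member windows (15.7% of all windows), CCAAT in 6 (29.3%), the GGG and CC form in 5 (41.4%) and the GAAA pair in 2, H2-T23 and B2m (2.27%). A match describes letters and is not a measurement of binding.

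By GENCODE vM21 (GRCm38), 7 of the 10 members lie on chromosome 17 in the MHC region, from Tapbp (33915899 to 33929292, plus strand) to H2-T23 (36029773 to 36032855, minus strand). B2m lies on chromosome 2 (122147686 to 122153083), Nlrc5 on chromosome 8 (94434356 to 94527272) and Erap1 on chromosome 13 (74639568 to 74693201), all on the plus strand. Reads could be split between near copies or overlapping genes for some members. Of all stretches of 150 bases, the read length, in the transcripts of H2-Q7, 5.9% also occur in transcripts of H2-Q10, H2-Q6 or H2-Q5. The H2-Q7 values are thus uncertain, by an amount that this share does not measure. The largest shares were 10.1% for Tapbp, all with Gm19412, and 9.43% for Erap1, all with Cast, both genes on the other strand. They were 1.35% for H2-D1, 1.04% for Tap1, 0.565% for Tap2, 0.331% for H2-T23 and 0 for H2-K1, B2m and Nlrc5. An exon of Tapbp also overlaps one of Zbtb22 on its own strand. Exons of Tap1, Tap2, Tapbp, Nlrc5 and Erap1 overlap an exon of a gene on the other strand (Psmb9 for Tap1, Cast for Erap1), so these values are uncertain too, and how strand was used is not given in the sources used here.

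Counts on genes ran from 3356297 in the Eµ-TCL1 mouse to 10252426 in Eµ-PRMT5 mouse 4. Values are CPM, counts relative to library size after scaling by edgeR's TMM factors. Adjusted p values are from edgeR's quasi-likelihood test over all 13173 genes. The test sets a difference between genotypes against the spread between mice of the same genotype. For the Eµ-TCL1 mouse, which is alone, that spread is borrowed from the other genotypes. The 8 B cell markers had counts in every library, with a summed level of 2326 CPM in Eµ-PRMT5 mouse 4 and 4000 to 9163 CPM in the other 7 mice. Mouse 4 thus had the lowest sum, though the outlier criterion of the closing section did not flag it within its group. Of the list, Cd22, Pax5 and Cd5 were not at their lowest in mouse 4. Macrophage markers (4 of 7 with a value in every library; C1qa, C1qb and C1qc were without) summed to 6926 CPM in Eµ-PRMT5/TCL1 mouse 1, 3262 CPM in Eµ-PRMT5 mouse 4 and 982 to 2527 CPM elsewhere. Neutrophil markers (7 of 7) were likewise highest in these libraries, at 8629 and 5065 CPM, against 414 to 4914 CPM elsewhere. T cell markers (5 of 7; Cd4 and Cd8a were without) summed to 203 to 714 CPM, and no marker with a value in every library was at 0. Over the 8 mice, plasma cell markers summed to 406 to 5604 CPM, NK cell markers to 17.98 to 356 CPM, erythroid markers to 15.0 to 309 CPM and dendritic cell markers to 18.3 to 88.3 CPM.

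**Figure D1:**
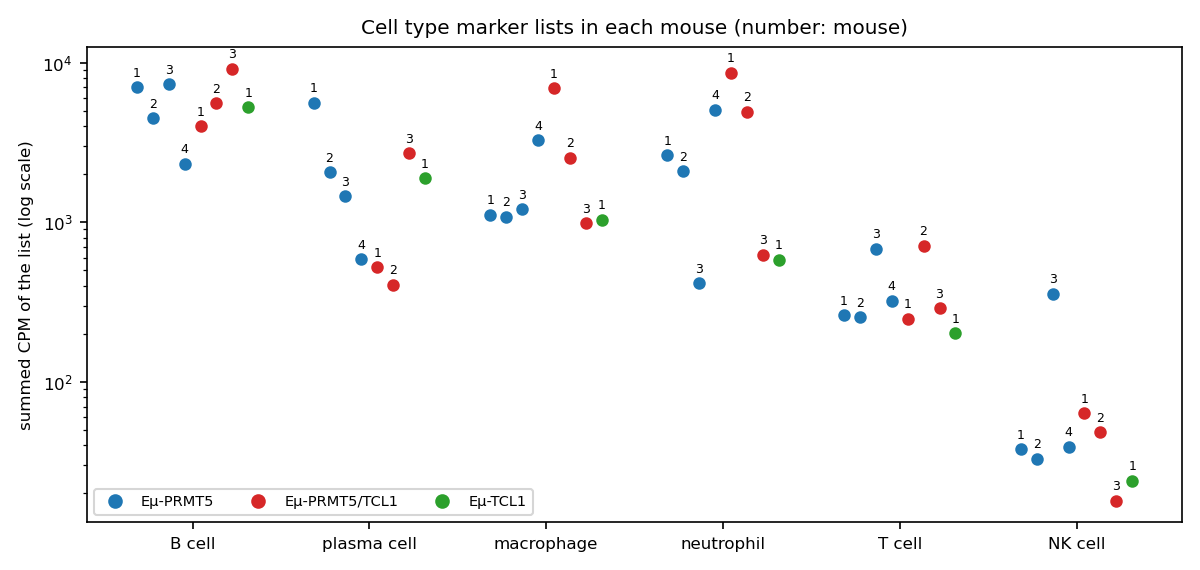
Summed CPM (log scale) of 6 marker lists in each of the 8 mice, each point a mouse with its number, colored by genotype. Eµ-PRMT5 mouse 4 had the lowest B cell sum (2326 CPM), and Eµ-PRMT5/TCL1 mouse 1 the highest macrophage (6926 CPM) and neutrophil (8629 CPM) sums.

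Across the members, levels per kilobase of exon spanned a wide range. H2-D1 was the most abundant, at a mean of 1524 CPM per kb in Eµ-PRMT5 mice, followed by B2m (695) and H2-K1 (569). Tapbp (141), H2-T23 (102), H2-Q7 (92.5), Tap2 (80.4) and Tap1 (75.0) formed a middle group in the same unit. Nlrc5 (17.8) and Erap1 (14.2) were lowest.

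In Eµ-PRMT5/TCL1 against Eµ-PRMT5 mice, 8 of the 10 members had a log2 fold change above 0, which 40.6% of all tested genes had, and none was called. Their median log2 fold change was 0.48, beside -0.09 over all tested genes. At an adjusted p under 0.05, 0 of 13173 genes (0.0%) passed in this comparison, and no member had an unadjusted p under 0.05 with edgeR or with DESeq2 (edgeR 0.957% of genes higher and 1.21% lower). In 4 members (H2-K1, H2-D1, H2-T23 and Tap2) every Eµ-PRMT5/TCL1 mouse lay above every Eµ-PRMT5 mouse, a separation that 1.35% of tested genes showed. No member was separated in the other direction (1.59% of genes). In bulk samples, fewer cells of a type and less RNA per cell cannot be told apart.

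The count of separated members changed most without Eµ-PRMT5 mouse 4, though leaving out a mouse can only keep or raise it. The absence of an unadjusted p under 0.05 depended on Eµ-PRMT5 mouse 4 and on the scaling. Without this mouse, 8 members were separated (5.5% of genes), the 4 named and H2-Q7, B2m, Tap1 and Tapbp, and 8 were also separated without both this mouse and Eµ-PRMT5/TCL1 mouse 1 (8.75%). Without mouse 4, edgeR gave 4 members with an unadjusted p under 0.05, all higher in Eµ-PRMT5/TCL1 mice (H2-D1, H2-Q7, Tap1 and Tap2, beside 2.98% of genes). With the replicate block 3 passed (H2-Q7, Tap1 and Tap2, beside 3.92% of genes). No other genotype has a number 4, so this block also sets mouse 4 aside and is no separate check. With upper-quartile scaling Tap2 alone passed (1.09%). No member was called in these fits. Mouse 4 held the highest value of its group in 8 of the 10 members, and Eµ-PRMT5/TCL1 mouse 1 likewise in 8. These were the libraries with the highest macrophage and neutrophil sums given above. Eµ-PRMT5/TCL1 mouse 2 had the next highest sums (2527 and 4914 CPM). It held the highest value of its group in 1 member, Nlrc5, and the lowest in 4. The part of those cells in the class I levels was not tested. With both mice left out, the log2 fold changes of the 8 separated members stayed between 0.29 (H2-K1) and 0.80 (Tap1), with no unadjusted p under 0.05. With scaling by library size alone, 5 members were separated (1.28% of genes), H2-K1, H2-D1, H2-Q7, Tap2 and Tapbp.

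**Figure D2:**
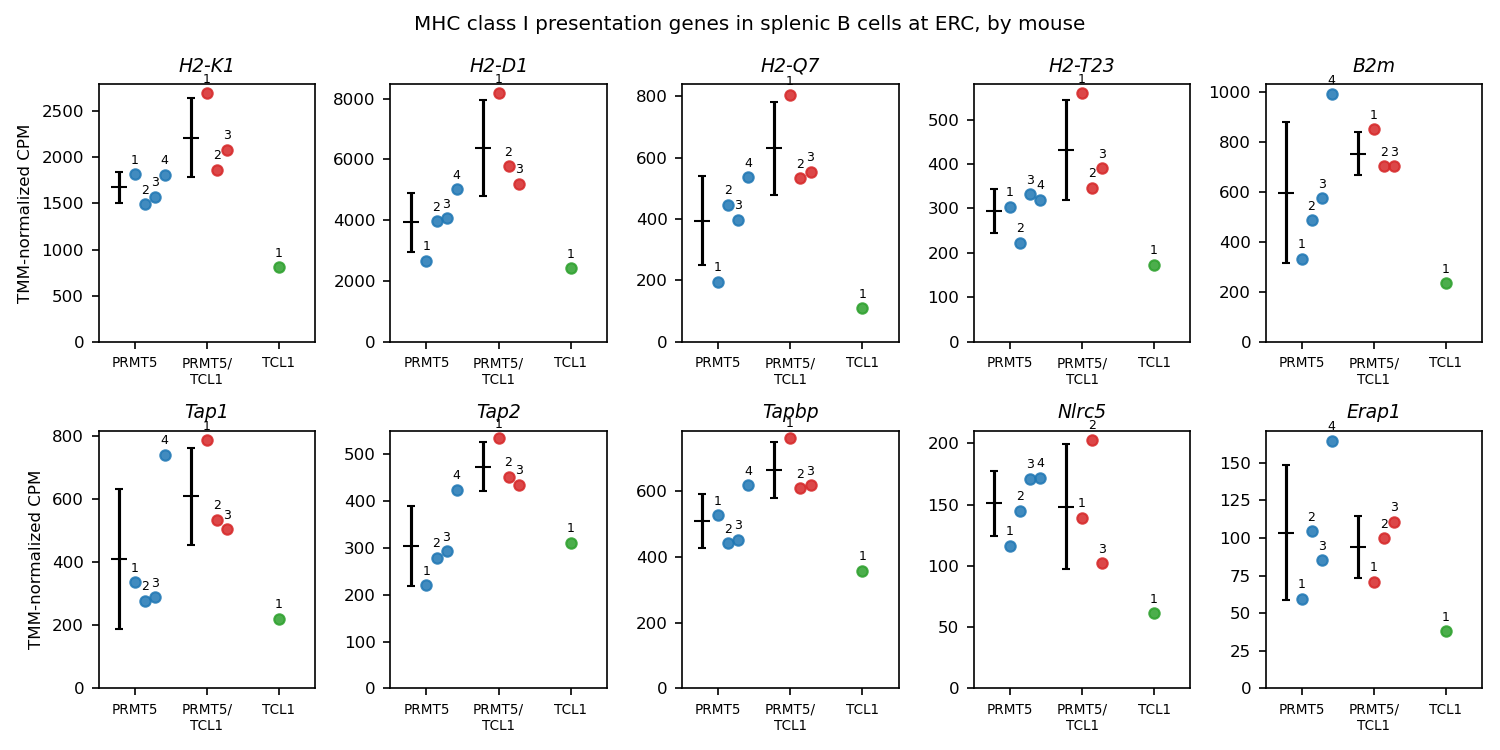
TMM-normalized CPM (linear axes from 0) of the 10 members in each mouse, numbered by mouse, with the mean ± SD of the replicated groups as black bars (n = 4 Eµ-PRMT5, n = 3 Eµ-PRMT5/TCL1). The Eµ-TCL1 mouse was lowest of 8 in 9 members, Tap2 being the exception, and Eµ-PRMT5/TCL1 mouse 1 was highest of 8 in H2-K1, H2-D1, H2-Q7, H2-T23, Tap1, Tap2 and Tapbp.

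Among the heavy chains, H2-K1, the classical K molecule, measured 1818, 1489, 1572 and 1813 CPM in Eµ-PRMT5 mice 1 to 4, 2695, 1865 and 2083 CPM in Eµ-PRMT5/TCL1 mice 1 to 3, and 808 CPM in the Eµ-TCL1 mouse. The replicated groups did not overlap, but Eµ-PRMT5/TCL1 mouse 2 was close to the top of the other group, and the Eµ-TCL1 mouse stood well below all. H2-K1 had a log2 fold change of 0.40 in Eµ-PRMT5/TCL1 over Eµ-PRMT5 mice (standard error 0.37, adjusted p = 1.0, edgeR's quasi-likelihood test). H2-D1, the classical D molecule, measured 2672, 3968, 4060 and 5023 CPM in Eµ-PRMT5 mice 1 to 4, 8180, 5774 and 5205 CPM in Eµ-PRMT5/TCL1 mice 1 to 3, and 2428 CPM in the Eµ-TCL1 mouse. Again the groups were ordered without overlap, and Eµ-PRMT5 mouse 1 lay near the Eµ-TCL1 mouse. For H2-D1 the log2 fold change came to 0.70 (standard error 0.44, adjusted p = 1.0, edgeR).

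H2-Q7, a nonclassical Qa-2 heavy chain, measured 196, 447, 398 and 538 CPM in Eµ-PRMT5 mice 1 to 4, 804, 533 and 554 CPM in Eµ-PRMT5/TCL1 mice 1 to 3, and 109 CPM in the Eµ-TCL1 mouse. It had the widest spread of the members, 7.36-fold from lowest to highest mouse, and Eµ-PRMT5 mouse 4 reached into the range of the Eµ-PRMT5/TCL1 mice. The log2 fold change of H2-Q7 was 0.68 (standard error 0.40, adjusted p = 1.0, edgeR). H2-T23, the Qa-1 heavy chain, which presents leader peptides of other class I molecules to NK cell receptors, measured 304, 223, 332 and 320 CPM in Eµ-PRMT5 mice 1 to 4, 560, 347 and 390 CPM in Eµ-PRMT5/TCL1 mice 1 to 3, and 174 CPM in the Eµ-TCL1 mouse. The groups were separated by a narrow gap, from 332 to 347 CPM. The log2 fold change of H2-T23 was 0.55 (standard error 0.33, adjusted p = 1.0, edgeR).

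The light chain gene B2m measured 333, 487, 576 and 994 CPM in Eµ-PRMT5 mice 1 to 4, 854, 705 and 703 CPM in Eµ-PRMT5/TCL1 mice 1 to 3, and 235 CPM in the Eµ-TCL1 mouse. Eµ-PRMT5 mouse 4 was the highest of all 8 mice, and the other Eµ-PRMT5 mice lay below all Eµ-PRMT5/TCL1 mice. For B2m the log2 fold change came to 0.33 (standard error 0.41, adjusted p = 1.0, edgeR) and 0.70 without that mouse.

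Of the peptide loading genes, Tap1, which encodes 1 subunit of the peptide transporter, measured 336, 277, 289 and 740 CPM in Eµ-PRMT5 mice 1 to 4, 786, 535 and 504 CPM in Eµ-PRMT5/TCL1 mice 1 to 3, and 220 CPM in the Eµ-TCL1 mouse. Eµ-PRMT5 mouse 4 stood far from the rest of its group and inside the range of the Eµ-PRMT5/TCL1 mice. The log2 fold change of Tap1 was 0.57 (standard error 0.42, adjusted p = 1.0, edgeR). It was 1.02 without Eµ-PRMT5 mouse 4, with an unadjusted p of 0.0096 in edgeR's fit, and no gene was called there either.

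Tap2, the other transporter subunit, measured 220, 279, 293 and 425 CPM in Eµ-PRMT5 mice 1 to 4, 534, 453 and 435 CPM in Eµ-PRMT5/TCL1 mice 1 to 3, and 311 CPM in the Eµ-TCL1 mouse. It was the only member in which the Eµ-TCL1 mouse was not the lowest, since it lay above 3 Eµ-PRMT5 mice. The log2 fold change of Tap2 between the replicated groups was 0.64 (standard error 0.34, adjusted p = 1.0, edgeR), the smallest unadjusted p of the members at 0.0856. Tapbp, which encodes tapasin, the bridge between TAP and the empty heavy chain, measured 527, 442, 452 and 619 CPM in Eµ-PRMT5 mice 1 to 4, 763, 610 and 619 CPM in Eµ-PRMT5/TCL1 mice 1 to 3, and 359 CPM in the Eµ-TCL1 mouse. Here the groups overlapped through Eµ-PRMT5 mouse 4 alone, and the range over all 8 mice was the narrowest of the members, at 2.13-fold. The log2 fold change of Tapbp was 0.38 (standard error 0.33, adjusted p = 1.0, edgeR).

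The transactivator Nlrc5 measured 116, 145, 171 and 172 CPM in Eµ-PRMT5 mice 1 to 4, 139, 203 and 102 CPM in Eµ-PRMT5/TCL1 mice 1 to 3, and 61.1 CPM in the Eµ-TCL1 mouse. The replicated groups overlapped throughout, with the highest and the lowest of these 7 mice both carrying Eµ-PRMT5/TCL1. For Nlrc5 the log2 fold change came to -0.03 (95% interval -0.76 to 0.71, adjusted p = 1.0, edgeR), and its sign turned under several alternatives. Erap1, the trimming aminopeptidase, measured 59.7, 104, 85.3 and 165 CPM in Eµ-PRMT5 mice 1 to 4, 70.8, 99.8 and 111 CPM in Eµ-PRMT5/TCL1 mice 1 to 3, and 38.1 CPM in the Eµ-TCL1 mouse. These groups overlapped as well, and Eµ-PRMT5 mouse 4 was again highest. The log2 fold change of Erap1 was -0.14 (95% interval -0.97 to 0.69, adjusted p = 1.0, edgeR), also with a sign that turned under other choices.

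**Figure D3:**
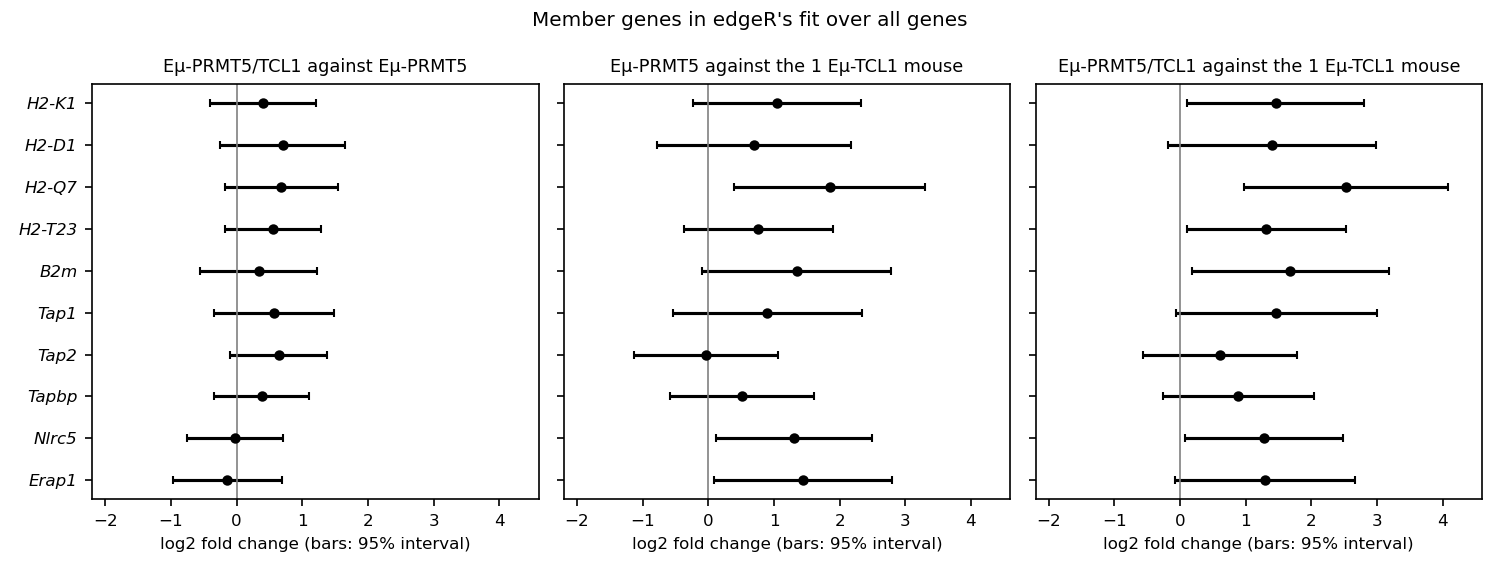
Log2 fold changes of the 10 members with 95% intervals from edgeR's fit over all genes, in the 3 comparisons (x axis, log2 scale; vertical line at 0). Every interval of the first comparison spans 0, and in the comparisons with the 1 Eµ-TCL1 mouse the intervals of 3 and 5 members lie above 0 while no adjusted p is under 0.05.

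Against the 1 Eµ-TCL1 mouse, the question was only whether its class I levels lay outside the spread of the other mice, since 1 mouse cannot stand for its genotype. It had the lowest value of all 8 mice in 9 of the 10 members, where 14.2% of tested genes had their lowest value in it and 21.3% their highest, and no member was highest. It lay below all Eµ-PRMT5 mice in 9 members (17.9% of genes) and below all Eµ-PRMT5/TCL1 mice in 10 (27.6%). The Eµ-PRMT5 mice had a positive log2 fold change over it in 9 members (51.9% of genes) and the Eµ-PRMT5/TCL1 mice in all 10 (46.6%). Median log2 fold changes of the members were 0.98 and 1.36, beside 0.04 and -0.07 over all tested genes. These comparisons share the Eµ-TCL1 mouse and so are not independent.

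None of the members was called, as 0 of 13173 genes (0.0%) passed an adjusted p under 0.05 in either comparison. At an unadjusted p under 0.05, edgeR gave 3 members higher in Eµ-PRMT5 mice (1.96% of genes) and 5 higher in Eµ-PRMT5/TCL1 mice (1.75%), none lower (4.82% and 4.33% of genes), and DESeq2 gave 5 and 8 higher (4.9% and 3.61% of genes). These counts moved when 1 library was left out, to between 2 and 4 in Eµ-PRMT5 mice (1.18% to 4.51% of genes). In Eµ-PRMT5/TCL1 mice they were 1 without Eµ-PRMT5/TCL1 mouse 1 (1.09%), 2 without mouse 2 (1.14%) and 3 without mouse 3 of that genotype (1.55%). They rose without Eµ-PRMT5 mouse 4 and also without Eµ-PRMT5 mouse 1, as did the share of all genes. Without Eµ-PRMT5 mouse 2 both fell, and without Eµ-PRMT5 mouse 3 the number of members stayed the same. By library size alone 1 and 3 members passed (0.972% and 1.04% of genes). With only the groups compared in the fit 1 and 9 passed (0.985% and 8.68% of genes). H2-Q7 was among those that passed in each of these fits. H2-Q7 differed most. It was 3.61-fold higher in the mean of Eµ-PRMT5 mice and 5.77-fold higher in that of Eµ-PRMT5/TCL1 mice than in the Eµ-TCL1 mouse, with log2 fold changes of 1.85 (standard error 0.67, adjusted p = 0.709) and 2.53 (standard error 0.71, adjusted p = 0.778) in edgeR's fit. In DESeq2's fit the log2 fold change of H2-Q7 in Eµ-PRMT5/TCL1 mice over the Eµ-TCL1 mouse was 2.62. Calls by DESeq2 are given in the closing section beside the number of all genes called.

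Nlrc5 was 2.47-fold and Erap1 2.72-fold higher in the mean of Eµ-PRMT5 mice than in the Eµ-TCL1 mouse, with log2 fold changes of 1.31 and 1.44 (adjusted p = 0.709 for both, edgeR). The log2 fold changes of B2m and H2-K1 were 1.35 and 1.05. For Tap2 the log2 fold change came to -0.03 (standard error 0.50, adjusted p = 0.991, edgeR), with a 95% interval from -1.13 to 1.06. The Eµ-TCL1 library had the fewest counts, the most symbols with a value (21475, against 16379 to 21180 elsewhere) and the largest TMM factor (1.16, against 0.859 to 1.15). With scaling by library size alone, 8 of the 10 members were lowest in this mouse (8.15% of genes), since H2-D1 was then not. Marker lists did not all move alike. Median log2 fold changes over it in Eµ-PRMT5 and in Eµ-PRMT5/TCL1 mice were 1.98 and 2.60 for neutrophil markers (7 of 7 positive in both), 0.89 and 1.82 for macrophage markers (4 of 4), 3.21 and 3.46 for erythroid markers (4 of 4), and 0.40 and 0.19 for B cell markers (5 and 7 of 8). For T cell markers they were 1.06 and -0.10, and for NK cell markers 1.13 and -1.13. Plasma cell markers had 0.38 and -1.54, and dendritic cell markers -0.45 and -0.73. The part of these cells, of depth and of library composition in the class I differences was not tested. Leaving out any 1 of the other 7 mice could not change which members were lowest in the Eµ-TCL1 mouse, so it gives no check of that count.

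The 3 members H2-K1, H2-D1 and H2-T23 were ordered without overlap from the Eµ-TCL1 mouse through the Eµ-PRMT5 mice to the Eµ-PRMT5/TCL1 mice, as were 29 of all tested genes (0.22%). Which members were so ordered depended on the scaling. With library size alone they were H2-K1, H2-Q7 and Tapbp (0.144% of genes).

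The balance between members was examined with 3 ratios on the log2 scale, each compared by exact permutation (two-sided, 35 splits of 7 mice), whose smallest possible p is 0.0286. The ratio of H2-K1 to H2-D1 was -1.52 ± 0.17 (SD, n = 3) in Eµ-PRMT5/TCL1 and -1.20 ± 0.43 (SD, n = 4) in Eµ-PRMT5 mice (exact p = 0.286, adjusted over the 3 ratios 0.857). Eµ-PRMT5 mouse 1 was the exception, with 0.680 counts of H2-K1 per count of H2-D1, where the other 7 mice had 0.323 to 0.400. Tap1 to Tap2 was 0.34 ± 0.19 (SD, n = 3) and 0.35 ± 0.42 (SD, n = 4), with no detectable difference (exact permutation p = 0.943, adjusted 0.943). The Eµ-TCL1 mouse had the lowest of these ratios, 0.708 counts of Tap1 per count of Tap2, while the others had 0.986 to 1.74. H2-K1 and H2-D1 together against B2m gave 3.49 ± 0.16 (SD, n = 3) and 3.33 ± 0.41 (SD, n = 4), again without a detectable difference (exact permutation p = 0.629, adjusted 0.943). This ratio was lowest in Eµ-PRMT5 mouse 4 (6.88 heavy chain counts per B2m count) and highest in the Eµ-TCL1 mouse (13.8).

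Whether the class I genes followed Nlrc5 from mouse to mouse was tested for 4 members over the log2 CPM of 8 mice. With B2m, Pearson's r was 0.73 (exact permutation p = 0.0379, or 0.152 when adjusted for 4 relations), while rho after Spearman was 0.619 (exact permutation p = 0.115, or 0.399 adjusted). For H2-K1, r was 0.607 (exact permutation p = 0.126, adjusted 0.168) and rho 0.0952 (p = 0.84, adjusted 0.84). H2-D1 gave 0.594 and 0.452 (exact permutation p = 0.119 and 0.267, adjusted 0.168 and 0.399), and Tap1 0.499 and 0.429 (p = 0.211 and 0.299, adjusted 0.211 and 0.399). Without the mice with the most extreme Nlrc5 values, Eµ-PRMT5/TCL1 mouse 2 and the Eµ-TCL1 mouse, r fell to 0.357 for B2m, -0.356 for H2-K1, 0.121 for H2-D1 and 0.0247 for Tap1. For H2-K1 and B2m, leaving out the Eµ-TCL1 mouse alone lowered r nearly as far, as given below. Leaving out the extremes of Nlrc5 also narrows its range, which by itself can lower r. None of the relations passed the adjusted threshold with all 8. Taken as deviations from the means of the 2 replicated genotypes (7 mice, 144 permutations within genotypes), r was 0.461 for B2m (exact permutation p = 0.146, adjusted 0.584), 0.492 for H2-D1 (p = 0.299, adjusted 0.598), 0.215 for Tap1 (p = 0.569, adjusted 0.708) and -0.318 for H2-K1 (p = 0.708, adjusted 0.708).

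**Figure D4:**
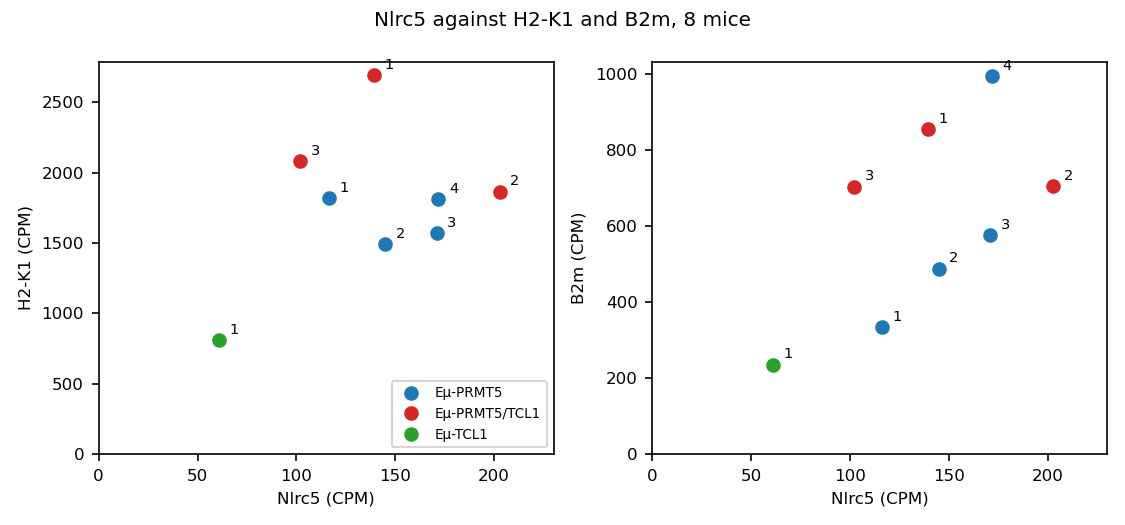
H2-K1 and B2m against Nlrc5 (CPM, linear axes), each point a mouse with its number, colored by genotype. The Eµ-TCL1 mouse (Nlrc5 61.1 CPM) lies at the lower left of both panels, and Eµ-PRMT5/TCL1 mouse 2 has the highest Nlrc5 (203 CPM) without the highest H2-K1 or B2m.

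As a description over the same 8 mice, which share library depth and composition, the median r of the 9 other members with H2-K1 was 0.801, beside -0.0782 for all tested genes. H2-T23 (0.935) and Tapbp (0.932) were nearest to it, and Tap2 (0.511) and Erap1 (0.529) least alike. Genes outside the set with the patterns most like H2-K1 were Gvin1 (0.976), an interferon-inducible GTPase, Samsn1 (0.968), Smpdl3a (0.954), Ap4b1 (0.949) and H2-Q6 (0.932). For Nlrc5 the median over the 9 other members was 0.594, beside -0.064 for all tested genes. B2m (0.73), H2-Q7 (0.725) and Erap1 (0.719) were the members nearest to it, and Tap2 (0.264) was least alike. Outside the set, Cfap36 (0.937), Yeats4 (0.925), Wrap73 (0.91), Map3k8 (0.9) and Rbm19 (0.9) were most like Nlrc5. Gm symbols, Rik symbols and those that begin with a digit were left out of both rankings of outside genes.

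The wider pathway was described with 63 further genes in 4 lists, 60 of them tested, and none was called in any comparison. In Eµ-PRMT5/TCL1 against Eµ-PRMT5 mice, 35 of the 60 had a log2 fold change above 0 and the median was 0.06, close to the -0.09 of all genes. Other class I heavy chains (14 tested) had a median of 0.46, peptide supply genes (14) 0.08, endoplasmic reticulum chaperones (11) 0.04, and transcription factors and interferon receptors (21) -0.13. In 6 of the 60 (1.35% of all tested genes), every Eµ-PRMT5/TCL1 mouse lay above every Eµ-PRMT5 mouse, among them H2-Q6, H2-M3, H2-T3, Tapbpl and Irf9. H2-T3, the thymus leukemia antigen, was the 1 gene of the lists with an unadjusted p under 0.05 (0.0347, adjusted 1.0, edgeR), at low levels of 1.04 to 2.96 CPM in Eµ-PRMT5 and 3.28 to 6.43 CPM in Eµ-PRMT5/TCL1 mice.

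H2-Q6 and H2-M3, a heavy chain that presents N-formylated peptides, had the same full ordering of the 3 genotypes as H2-K1 with TMM scaling, and they are named here after their values were seen. H2-M3 ranged from 83.4 to 133 CPM in Eµ-PRMT5 and from 137 to 238 CPM in Eµ-PRMT5/TCL1 mice, with 54.9 CPM in the Eµ-TCL1 mouse. H2-Q6 measured 528 to 749, 757 to 1092 and 293 CPM in that order.

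Against the Eµ-TCL1 mouse the lists differed more. Of the 60 genes, 22 had their lowest value in it (14.2% of all tested genes) and 2, H2-Q2 and Mr1, their highest (21.3%). By library size alone the counts were 11 (8.15%) and 6 (27.6%). The median log2 fold change of Eµ-PRMT5 mice over it was 1.02 for peptide supply, 0.66 for chaperones, 0.45 for other heavy chains and 0.37 for transcription factors, beside 0.04 for all genes. Peptide supply had 8 of 14 genes lowest in the Eµ-TCL1 mouse, or 5 by library size alone, and the 8 included the immunoproteasome subunits Psmb8, Psmb9 and Psmb10 and both subunits of the proteasome activator PA28, Psme1 and Psme2.

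Psme2 measured 211, 378, 318 and 587 CPM in Eµ-PRMT5 mice 1 to 4, 383 to 503 CPM in Eµ-PRMT5/TCL1 mice, and 125 CPM found in the Eµ-TCL1 mouse. Eµ-PRMT5 mice had a log2 fold change of 1.58 over it (standard error 0.64, adjusted p = 0.709, edgeR). Irf1, a transcription factor induced by interferon that acts on class I promoters, measured 155, 177, 121 and 248 CPM in Eµ-PRMT5 mice 1 to 4, 176 to 211 CPM in Eµ-PRMT5/TCL1 mice, with 54.3 CPM in the Eµ-TCL1 mouse. All 7 mice lay above 2 times its level there, with log2 fold changes of 1.69 (standard error 0.55, adjusted p = 0.709) and 1.87 (standard error 0.57, adjusted p = 0.778) in edgeR's fit. Ifnar2, a chain of the type I interferon receptor, was 35.6 to 65.2, 20.9 to 121 and 16.0 CPM in the same order of groups.

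Calr, the chaperone calreticulin, measured 143 to 586 CPM in Eµ-PRMT5, 286 to 482 CPM in Eµ-PRMT5/TCL1 and 113 CPM in the Eµ-TCL1 mouse, and Ppia, cyclophilin A, 725 to 3114, 1602 to 2177 and 571 CPM. Thop1, a peptidase that degrades cytosolic peptides, measured 36.0 ± 33.3 CPM (SD, n = 4), 28.7 ± 6.61 CPM (SD, n = 3) and 10.003 CPM. The heavy chain H2-Q10 measured 4.26 to 26.2, 11.2 to 16.6 and 3.79 CPM, and Mr1, which presents vitamin metabolites, was highest in the Eµ-TCL1 mouse at 23.8 CPM, above 2.46 to 19.6 CPM elsewhere. None of these had an adjusted p under 0.05 in edgeR's test.

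**Figure D5:**
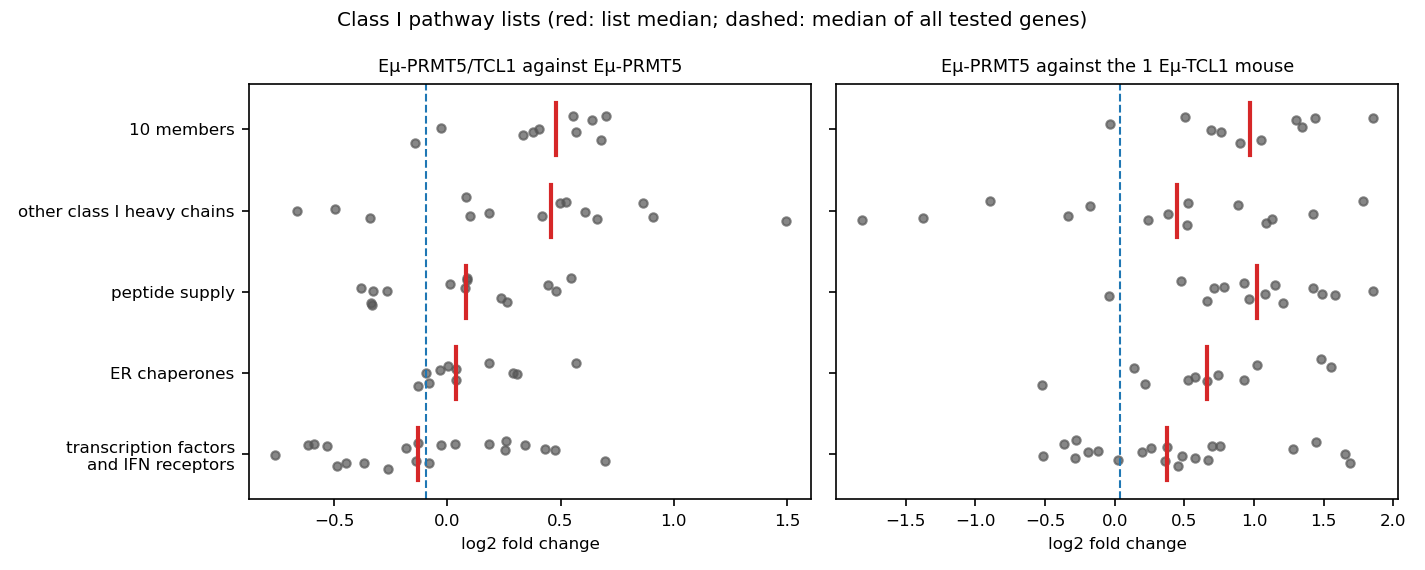
Log2 fold changes (x axis) of the 10 members and of the genes of 4 pathway lists in 2 comparisons, each point a gene, with the list median in red and the median of all tested genes as a dashed line. The member median was 0.48 in the first comparison and 0.98 in the second, and peptide supply genes had medians of 0.08 and 1.02.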

How the data were processed

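The RNA of splenic B cells from 8 mice was sequenced in bulk. The values deposited by the authors are raw counts for each symbol, neither normalized nor pooled. By the study's methods, low-input cDNA was preamplified and sequenced as paired 150-base reads, while the labels describe a TruSeq stranded kit. The submitters' processing notes name GRCm38, Subread, featureCounts and DESeq2 1.20.0. For another experiment, made with that stranded kit, the study's methods name STAR, featureCounts and an Ensembl annotation, and for the low-input libraries the CLEAR workflow, which picks reliably quantifiable transcripts. Whether these counts were made in either way, how strand was used and what 36919 NA cells mean are not given in the sources used here, and NA was not read as 0 in the main fit.

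From the counts, 1 model over the 3 genotypes was fitted with edgeR 4.0.16 in R 4.3.3 (TMM factors, expression filter by group, quasi-likelihood test, Benjamini-Hochberg adjustment at 0.05) for the 13173 genes that passed among 14072 with a value in every library. The biological coefficient of variation was 0.483. Totals were 3356297 to 10252426 counts, and members held at least 141, so counting error was small beside the spread between mice. Likeness used log2 CPM with a prior count of 2, and ratios 0.5 added counts. Permutation tests went through every split or pairing in Python 3.11.15, and the test of splits was checked against scipy 1.17.1. DESeq2 1.42.0, other scaling and filters, the replicate number as a block and each mouse left out were alternatives, and leaving out 2 mice together and the relations within genotypes were chosen after seeing the data. The code was tested on simulated data. Groups follow the labels, as do replicate numbers. Members and gene lists were chosen with earlier results of these data known. Genes named from each list were those called, otherwise those with the smallest unadjusted p under 0.05 between replicated groups and up to 2 whose Eµ-TCL1 value lay outside all others with the largest fold against the Eµ-PRMT5 mice. A few list genes are not reported here by name but remain in the list counts and sums.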

Additional observations from a re-analysis of the deposited data

Results flagged for a closer look

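In 21 sets of values of the 4 Eµ-PRMT5 mice (members, ratios and marker lists), 5 held a mouse far from its group by Dixon's criterion at 95%, where about 1.05 would be expected by chance. Tap1 was at 740 CPM in Eµ-PRMT5 mouse 4, the other 3 being at 277 to 336 CPM. The log2 ratio of H2-K1 to H2-D1 was -0.56 in Eµ-PRMT5 mouse 1, against -1.47 to -1.37. Macrophage markers reached a sum of 3262 CPM in Eµ-PRMT5 mouse 4 and of 1081 to 1205 CPM in the others. In Eµ-PRMT5 mouse 3, T cell markers summed to 684 CPM (254 to 323 CPM in the others) and NK cell markers to 356 CPM (32.9 to 39.2 CPM), and this mouse held the highest value of its group in 1 member, H2-T23. What lies behind these values was not tested.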

How the results depend on the processing

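Across the alternatives, 222 values that answer a comparison kept direction and side of the threshold, 9 turned, 7 moved and 6 weakened, and of values of single members 462 kept them, 17 turned and 1 gained a call. The count of all genes called was 0 in every comparison, but DESeq2 called 4, 18 and 16 genes (Eµ-PRMT5/TCL1 against Eµ-PRMT5, Eµ-PRMT5 and Eµ-PRMT5/TCL1 against the Eµ-TCL1 mouse), and with the last it called 1 member, H2-Q7 (log2 fold change 2.62). The replicate numbers do not pair the mice, since deviations of same-numbered mice correlated at -0.02, 0.15 and 0.16. Only the Eµ-PRMT5 mice have a number 4, so the replicate block sets that mouse aside. With the replicate block, 1 gene was called in each comparison with the Eµ-TCL1 mouse, no member was called, Nlrc5 and Erap1 between the replicated groups moved to 0.0053 and 0.19, and the log2 ratios of Tap1 to Tap2 and of heavy chains to B2m moved to 0.14 and -0.015. The difference in Nlrc5 turned to 0.022 with upper-quartile scaling, 0.00077 with at least 10 counts in every library and 0.093 without the pair Eµ-PRMT5 mouse 4 with Eµ-PRMT5/TCL1 mouse 1, where Erap1 was 0.35. That of Tap2 against the Eµ-TCL1 mouse turned to 0.068 with DESeq2, 0.059 with only those groups and 0.26 with NA counted as 0. With each mouse left out, Nlrc5 ranged from -0.32 to 0.18, Erap1 from -0.32 to 0.17, Tap2 against the Eµ-TCL1 mouse from -0.24 to 0.21, the ratio of Tap1 to Tap2 from -0.13 to 0.14 and that of heavy chains to B2m from -0.015 (without Eµ-PRMT5 mouse 4) to 0.31. The r of Nlrc5 with H2-K1 ranged from -0.288 (without the Eµ-TCL1 mouse) to 0.72, and with B2m from 0.363 (without that mouse) to 0.827, and the latter was 0.677 (exact permutation p = 0.067) by library size alone. Within genotypes these r were -0.318 and 0.461 (exact permutation p = 0.708 and 0.146). Members separated between the replicated groups numbered 4 to 8 in these fits, 8 without Eµ-PRMT5 mouse 4. The cause of these shifts was not tested. With 1 Eµ-TCL1 mouse, its spread is assumed to be that of the other groups.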
